A study of Mus musculus with 6 samples.

Results

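The Hox genes are homeobox transcription factors that lie in 4 clusters, and the 32 described here are all the entries of a deposited table of 22956 genes whose symbol is Hox, a cluster letter from a to d and a number. The HoxA cluster on chromosome 6 gave 11 of them, HoxB on chromosome 11 gave 8, HoxC on chromosome 15 gave 8 and HoxD on chromosome 2 gave 5. The genes were picked by name and not by a measured value, though earlier results of these data were known. The number is the paralog number: genes with the same number in different clusters descend from 1 ancestral gene and hold like places in their clusters.

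RNA was sequenced from the aorta of C57B6 mice, with smooth muscle cell as the labelled cell type, in 6 libraries from mice 30 weeks old that had eaten a western diet for 20 weeks. The 3 WT libraries have the genotype WT/mTmG/ Myh11ERT2, and the 3 knockout libraries have the genotype miR-21fl/flmTmG/Myh11ERT2 and the group label miR21 -/-. All 6 therefore carried mTmG, a reporter whose colour switches in cells where Cre recombinase has acted, and Myh11ERT2, an inducible Cre under the Myh11 promoter of smooth muscle. In the knockout the floxed miR-21 gene can be deleted only where that promoter has been active, so other cells of the vessel wall keep miR-21. The labels name no segment of the aorta, no sort of cells and no separate animals, so a p-value here covers just the spread among the 6 samples, and that spread may be technical. miR-21 itself was not analysed here, and the counts of Vmp1, the gene that overlaps it, do not check its loss.

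In the embryo, Hox genes are switched on in the order in which they lie along each cluster, low numbers towards the head and high numbers towards the tail, and this code of position is partly kept in adult cells. Hox proteins bind DNA with partners of the Pbx, Meis and Pknox families, and Polycomb and Trithorax proteins keep the clusters silent or active through cell division. The vessel wall keeps such a code: smooth muscle and fibroblasts of the aortic arch, which come in part from the neural crest, and of the descending aorta, which come from the mesoderm, are known to differ in Hox expression. The clusters also hold microRNAs, short RNAs that lower messages whose 3′ untranslated region (UTR) pairs with bases 2 to 8 of the microRNA, its seed.

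The seeds matter here because the knockout removes a microRNA, and because the Hox clusters carry microRNAs of their own that can pair with Hox messages. Mature sequences are from RefSeq on GRCm38.p6, the same assembly as mm10, with the seed in capitals.
miR-21a-5p: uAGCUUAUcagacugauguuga
miR-10a-5p: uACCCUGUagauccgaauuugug
miR-10b-5p: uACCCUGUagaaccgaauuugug
miR-196a-5p: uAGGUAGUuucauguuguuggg
miR-196b-5p: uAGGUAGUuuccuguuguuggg
Mature miR-21a-5p is encoded away from the clusters (chromosome 11, 86584120 to 86584141, minus strand). miR-10a-5p lies in HoxB (chromosome 11, 96317186 to 96317208, plus strand) and miR-10b-5p in HoxD, within the annotated spans of Hoxd3 and Hoxd4 (chromosome 2, 74726074 to 74726096, plus strand). miR-196a-5p has 2 genes, 1 in HoxB (chromosome 11, 96265187 to 96265208, plus strand) and 1 in HoxC (chromosome 15, 102973365 to 102973386, plus strand). miR-196b-5p lies within Hoxa9 (chromosome 6, 52230129 to 52230150, minus strand). The levels of these small RNAs were not analysed here.

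The 3′ UTRs of all 32 Hox genes were searched on the message strand in the GENCODE M21 transcripts, as were those of 15134 genes in all. The median UTR was 963 bases in the Hox genes and 1105 bases in all genes searched. The miR-21 seed match ATAAGCT was in 0 of the 32 Hox UTRs, against 7.6% of all genes, and so was its longer form ATAAGCTA, which 2.3% of all genes held. The miR-10 match ACAGGGT was in 3 Hox UTRs, those of Hoxa3 and Hoxb3 among them, against 14.1% of all genes. The miR-196 match ACTACCT was in 7, those of Hoxa4, Hoxa5, Hoxa7, Hoxa9, Hoxb6, Hoxb7 and Hoxc8, against 6.8% of all genes. Its longer form ACTACCTA was in 5 of these against 1.3% of all genes. A match describes the letters only, and no match says only that the letters are not in the UTR that was searched.

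Examples of these sites are given with the match in capitals, the first for miR-10 and the next 3 for miR-196.
Hoxa3: actctttgataagaaACAGGGTAtat
Hoxa7: aggcacagccaaaatACTACCTAgca
Hoxb6: ctggaaggagcacatACTACCTAgaa
Hoxb7: actgtaaaaaaatatACTACCTAtgg
Hoxa7 held 4 such matches in a UTR of 1219 bases. Hoxb8, a known target that miR-196a can cleave, has no match to the whole seed, but 21 of the 22 bases of miR-196a-5p meet a Watson-Crick partner, from base 418 to base 439 of its UTR. In that site the capitals form Watson-Crick pairs, and the lower-case g stands opposite a U, a wobble pair.
Hoxb8: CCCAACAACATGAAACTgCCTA
The next best Hox UTR for this comparison, that of Hoxd8, had Watson-Crick pairs at 15 of 22 bases.

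The Hox code of these aortas reached to paralog number 10 and dropped after it in HoxA and HoxC. Hoxa10 and Hoxc10 were among the 10 highest Hox genes per kb of exon. Genes of numbers 11 and 13 were low or near the limit of detection. Numbers above 10 had entries only in HoxA and HoxC, since HoxB had none above Hoxb9 and HoxD none above Hoxd10. No entry had a number between 11 and 13, so genes without an entry are not covered. Positions are on mm10. Levels are given in CPM, counts scaled to a common library total after adjustment by TMM, a method that sets the bulk of genes equal between libraries, or, where genes are compared with each other, in CPM per kb of annotated exon. In CPM per kb, averaged over the 6 libraries, the highest was Hoxb2 at 8.17, followed by Hoxa7 at 7.26, Hoxa5 at 6.74, Hoxb6 at 6.40, Hoxb7 at 5.18, Hoxa3 at 4.41 and Hoxa10 at 3.96. The 6 lowest were Hoxc11 at 0.0586, Hoxd4 at 0.0540, Hoxa13 at 0.0453, Hoxd3 at 0.0308, Hoxd10 at 0.0237 and Hoxc13 at 0.0196. From 1 rank to the next, the ranges over the 6 libraries overlapped at every step except that from Hoxb8 at 0.234 to Hoxc5 at 0.0870, so the order of close neighbours is not resolved. With the longest coding transcript as the length in place of all exon bases, Hoxb2 stayed highest at 17.5 CPM per kb and Hoxa7 second at 10.4. Hoxa3 then came to 10.2 and passed Hoxa5 at 6.74, Hoxb6 at 6.40 and Hoxb7 at 6.19, so the order of these genes depends on the length chosen. Hoxc6 came to 2.70 and passed Hoxc10, which stayed at 2.58 and was no longer among the 10 highest.

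**Figure D1:**
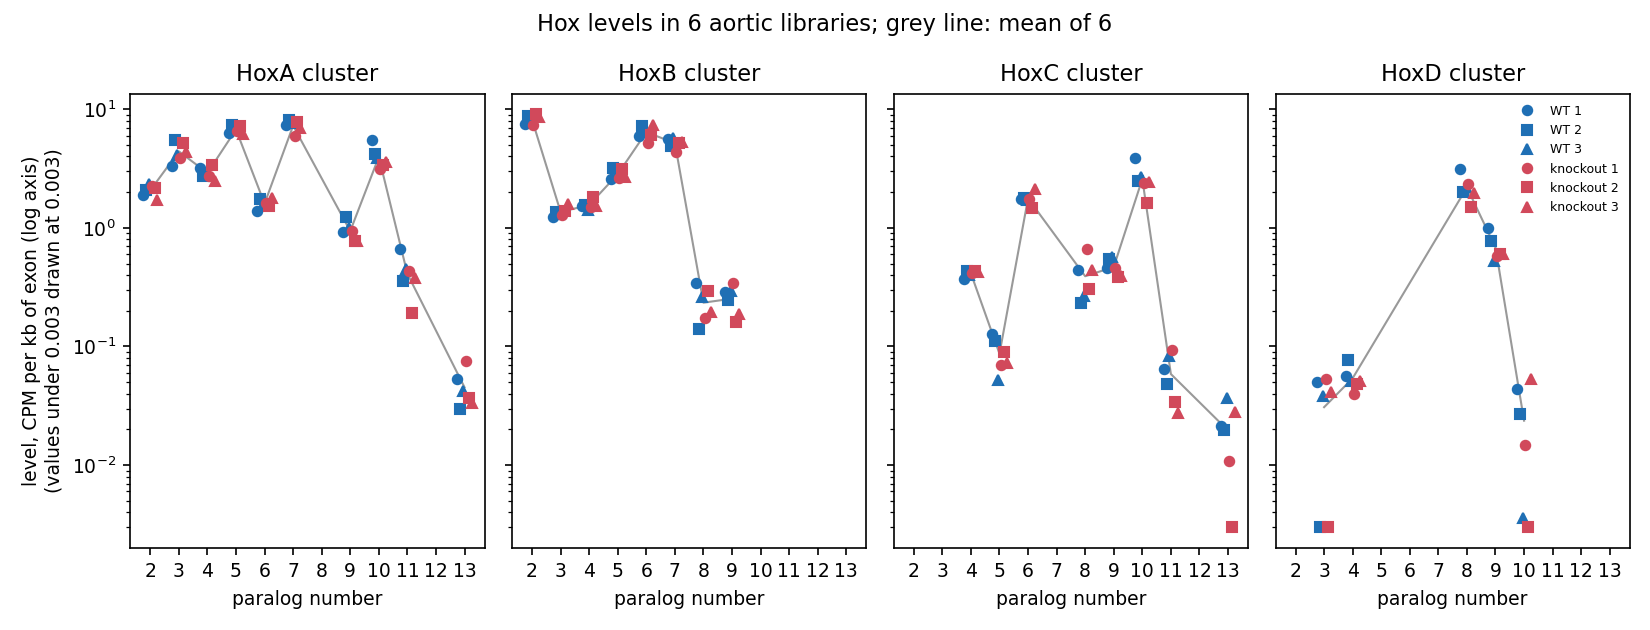
Level of the Hox genes from number 2 on, in CPM per kb of exon (log axis), against paralog number, 1 panel per cluster, with 1 symbol per library and a grey line through the mean of 6. In HoxA the mean dropped from 3.96 at Hoxa10 to 0.410 at Hoxa11, in HoxC from 2.58 at Hoxc10 to 0.0586 at Hoxc11, and in HoxB the drop came earlier, from 5.18 at Hoxb7 to 0.234 at Hoxb8.

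In HoxB, the leading gene was Hoxb2 (chromosome 11, 96350525 to 96354012), a gene that patterns the hindbrain and neural crest in the embryo. It had 26.0, 30.5 and 27.4 CPM in WT 1, 2 and 3 and 25.6, 31.7 and 29.7 CPM in knockout 1, 2 and 3. The 6 libraries lay close together, with the highest 1.24 times the lowest, and the groups overlapped. Hoxb6 (chromosome 11, 96292476 to 96301569) had 11.6, 14.2 and 13.1 CPM in WT and 10.1, 12.0 and 14.4 CPM in the knockout. Hoxb7 (chromosome 11, 96286623 to 96290162), the next gene, had 8.72, 7.51 and 8.90 CPM in WT and 6.73, 7.98 and 8.10 CPM in the knockout. The cluster then dropped in 1 step: Hoxb7 was 22.1 times Hoxb8 in mean CPM per kb, and 16.6 to 34.8 times in single libraries. Hoxb8 ranged from 0.368 to 0.896 CPM and Hoxb9 from 0.412 to 0.884 CPM.

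In HoxA, levels stayed up further along the cluster. Hoxa3 (chromosome 6, 52169062 to 52213336), a gene needed for the thymus, parathyroid and carotid arteries in the embryo, had 20.0, 33.1 and 24.9 CPM in WT and 23.4, 31.3 and 26.4 CPM in the knockout. WT 1 was the lowest library and WT 2 the highest, so the WT group alone spanned the whole range. Hoxa7 (chromosome 6, 52214491 to 52221854), of the middle of the code, had 21.0, 23.2 and 21.9 CPM in WT and 17.1, 22.3 and 19.9 CPM in the knockout. Hoxa5 (chromosome 6, 52201754 to 52204587), a gene of the cervical and upper thoracic region that also acts in lung development, had 11.7, 13.9 and 12.7 CPM in WT and 12.3, 13.5 and 11.7 CPM in the knockout. Hoxa9 stood lower than both its neighbours per kb: Hoxa7 was 7.72 times Hoxa9, and Hoxa9 was 0.238 times Hoxa10. Hoxa10 was 9.65 times Hoxa11 (7.29 to 17.9 in single libraries), and Hoxa11 was 9.06 times Hoxa13.

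Towards the low end of the numbers, Hoxa4, the leading gene of its number, had 5.09, 4.32 and 4.59 CPM in WT and 4.39, 5.42 and 3.92 CPM in the knockout. At the high end, Hoxa11 (chromosome 6, 52242106 to 52245810), a gene of the uterus, kidney and forearm, had 0.657, 0.354 and 0.451 CPM per kb in WT, against 0.432, 0.190 and 0.377 CPM per kb in the knockout. Hoxa13, the last gene of the cluster, had 0.132, 0.0736 and 0.104 CPM in WT and 0.188, 0.0915 and 0.0834 CPM in the knockout. These Hoxa13 values rest on 3 to 16 counts a library and are close to the 3 counts taken as the limit of detection, which was 0.0195 to 0.0804 CPM.

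HoxC and HoxD contributed less and were expressed mainly in their middle and posterior parts. Hoxc10 (chromosome 15, 102966796 to 102971893), a gene of the lumbar and hindlimb level, led HoxC at 2.58 CPM per kb of exon, ahead of Hoxc6 at 1.77. Hoxc4, Hoxc8 and Hoxc9 had 0.391 to 0.468. With the longest coding transcript as the length, Hoxc6 came to 2.70 and Hoxc10 stayed at 2.58, so which of them led depends on the length. Hoxc10 was 25.9 to 87.9 times Hoxc11 in single libraries. Hoxd8 (chromosome 2, 74704615 to 74707933) led HoxD and had 8.54, 5.52 and 6.11 CPM in WT and 6.46, 4.09 and 5.38 CPM in the knockout. Hoxd9 (chromosome 2, 74697727 to 74700208) had 2.13, 1.67 and 1.13 CPM in WT and 1.23, 1.28 and 1.29 CPM in the knockout. Hoxd3, Hoxd4 and Hoxd10 stayed at or under 0.227 CPM in every library. HoxA made up 44.5% to 49.1% of the summed Hox level per kb, HoxB 37.1% to 42.1%, HoxC 6.59% to 10.5% and HoxD 3.23% to 6.33%. These shares cover only genes with an entry, of which HoxD had 5.

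Summed over clusters, the mean level per paralog number from 2 on, in CPM per kb, was 10.2 for number 2, 5.80 for number 3, 4.92 for number 4 and 9.66 for number 5. It was 9.77 for number 6, 12.4 for number 7, 2.82 for number 8, 2.34 for number 9, 6.56 for number 10, 0.469 for number 11 and 0.0649 for number 13. The profile was high at number 2 and number 7 and had a separate rise at number 10 that came from Hoxa10 and Hoxc10. With the longest coding transcript as the length, number 2 summed to 19.6, number 7 to 16.6 and number 10 to 7.65, but number 3 to 12.1, above number 5 and above number 6 at 10.7. Whether number 3 lies below number 5 and number 6 thus depends on the length.

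The counting limits which levels are firm. Of the 32 genes, 16 had whole-number estimated counts (within 1e-09) in all 6 libraries, and 6 (Hoxa3, Hoxa4, Hoxb2, Hoxb3, Hoxd3 and Hoxd4) had split counts in all 6. In 9 genes more than 10% of exon bases were shared with another annotated gene, 52.9% for Hoxb3 with the antisense Hoxb3os and 27.3% for Hoxb2 with the same antisense gene. The library kit does not mark strand, so reads of such pairs cannot be told apart, and the levels of these genes are uncertain. Hoxa10 shared 0.0% and Hoxc10 8.7% of its exon bases, the latter with Hoxc5.

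Between single libraries, the posterior genes had the larger median relative spread. Paralog numbers 9 to 13 form the class usually called posterior, and the other numbers were divided into 1 to 4 and 5 to 8 after the levels had been seen. Among genes with a mean of at least 1 CPM, the median coefficient of variation over the 6 libraries was 10.7% for the 8 genes of numbers 1 to 4, 10.4% for the 9 of numbers 5 to 8 and 21.5% for the 5 of numbers 9 to 13. It was 10.0% over all 13737 genes of that level. For Hoxc10 it was 28.1% where counting error alone would give 6.61%, and for Hoxd8, which lies next to the posterior genes in HoxD, 24.6% where counting error alone would give 5.90%. Hoxb2, at 8.81%, and Hoxa5, at 7.39%, were steadier. Not every gene followed the medians. The largest spread at this level was that of Hoxc8, of number 8, at 40.5%, where counting error alone would give 14.1%. Hoxa3, at 18.6%, was above the posterior Hoxa9 at 18.0%. The 10.0% was not matched for level, and counting error alone would give 13.5% for Hoxc9 and 11.8% for Hoxd9.

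WT 1 and knockout 2 stood at opposite ends of this variation. WT 1 was the highest library for 3 of the 5 posterior genes and the lowest for 4 of the 8 genes of numbers 1 to 4, and knockout 2 was the lowest for 3 of the 5 and the highest for 5 of the 8. The ratio of Hoxa10 to Hoxa3, in CPM, was 0.903, 0.416 and 0.513 in WT, against 0.441, 0.356 and 0.441 in the knockout. The ratio of Hoxc10 to Hoxb2, in CPM, was 0.284, 0.155 and 0.186 in WT, against 0.179, 0.0982 and 0.156 in the knockout. In both ratios WT 1 was the highest, knockout 2 was the lowest and the groups overlapped.

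**Figure D2:**
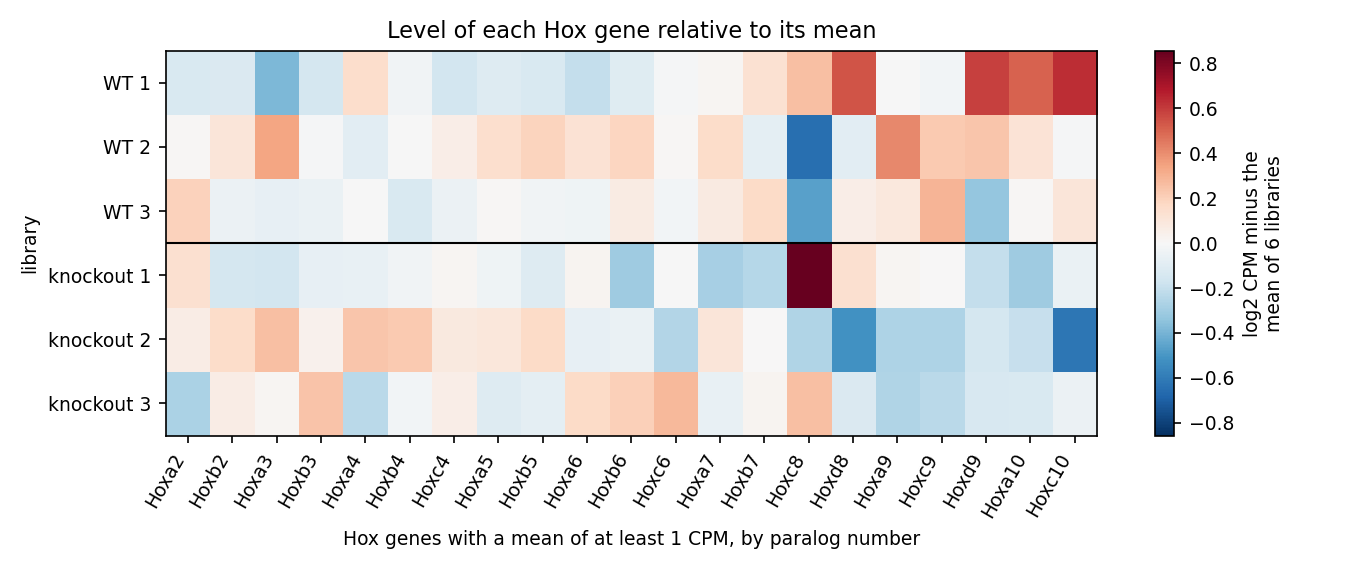
Log2 CPM of the Hox genes from number 2 on with a mean of at least 1 CPM (columns, by paralog number) in each library (lines), minus its mean over the 6 libraries. WT 1 is low at Hoxa3 and high at Hoxd8, Hoxd9, Hoxa10 and Hoxc10, and knockout 2 is high at Hoxa3 and low at Hoxd8 and Hoxc10.

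A level-weighted mean of the paralog number gives 1 value per library. The WT libraries 1, 2 and 3 stood at 5.97, 5.53 and 5.64, and the knockout libraries at 5.54, 5.30 and 5.53. Group means were 5.71 ± 0.226 for WT and 5.46 ± 0.140 for the knockout (SD, n = 3 each), so the knockout differed by -0.26 with overlapping groups, and by -0.13 without WT 1. The summed level of all Hox genes was 179, 195 and 179 CPM for WT and 163, 183 and 177 CPM for the knockout, also overlapping, and the mean difference of -9.95 CPM became -4.23 without knockout 1 and -4.60 without WT 2.

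Numbers 9 to 13 gave 19.2%, 14.3% and 14.4% of the summed Hox level per kb in WT 1, 2 and 3, against 14.1%, 10.9% and 13.1% in the knockout libraries. The groups did not overlap, but WT 2 and knockout 1 stood side by side, and the means were 16.0% ± 2.77 and 12.7% ± 1.65 (SD, n = 3 each). The difference of -3.25 percentage points became -1.65 without WT 1 and -2.34 without knockout 2. By contrast, numbers 5 to 8 gave 51.8% to 54.0% in every library, with overlapping groups. Numbers 1 to 4 gave 29.1%, 33.2% and 31.7% in WT, against 33.8%, 36.9% and 33.0% in the knockout, again overlapping.

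Markers of fibroblasts, which also express Hox genes, moved in part with the posterior share. The 10 adventitial fibroblast markers, all tested and none at 0 in all libraries, summed to 6829, 3053 and 6058 CPM in WT 1, 2 and 3 and to 5551, 1393 and 1926 CPM in knockout 1, 2 and 3. WT 1 was the highest and knockout 2 the lowest, as for the posterior share, while WT 2 and knockout 1 stood in the opposite order. Lum and Dcn, both proteoglycans of the matrix, made up 85.4% to 91.9% of this sum. Marker by marker, WT 1 was the highest library for 7 of the 10, and knockout 2 and WT 2 were each the lowest for 5. Of these markers 8 had a fold change below 0 and 0 passed the test. The 8 smooth muscle markers summed to 23167, 34807 and 29086 CPM in WT and to 27801, 36179 and 34102 CPM in the knockout, the reverse order at both ends. WT 1 was also the highest library for the endothelial (117 CPM), adipocyte (65.7 CPM), macrophage (29.5 CPM) and lymphocyte (1.24 CPM) marker sums. Its place was thus not particular to fibroblasts. Knockout 2 was not the lowest library in any of these sums. For the nerve sum knockout 1 was the highest, and for the skeletal and cardiac sums knockout 2. The part of the cell makeup in the Hox values was not tested. In such bulk samples, fewer cells of a type and less RNA per cell cannot be told apart.

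**Figure D3:**
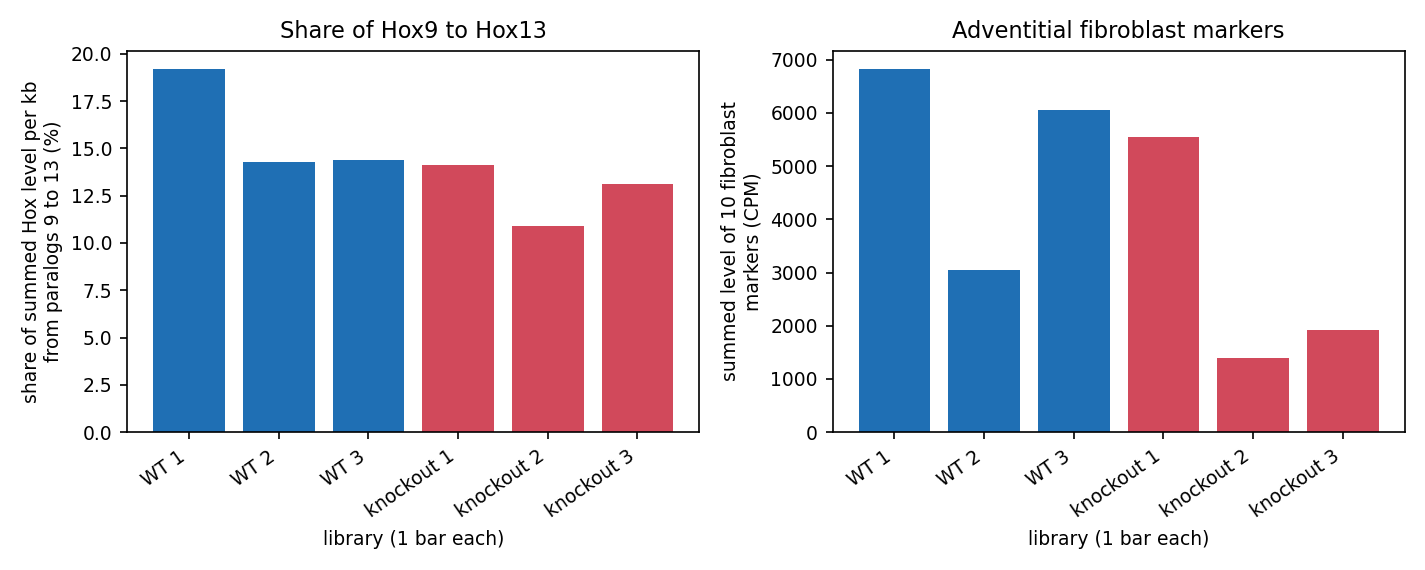
Left, percent of the summed Hox level per kb that came from paralog numbers 9 to 13, and right, summed level in CPM of 10 adventitial fibroblast markers, with 1 bar per library and no error bars. WT 1 is highest in both (19.2% and 6829 CPM) and knockout 2 lowest in both (10.9% and 1393 CPM), where Lum and Dcn make up 85.4% to 91.9% of the marker sum and WT 2 is the lowest library for 5 of the 10 markers. WT 1 was also the highest library for the endothelial, adipocyte, macrophage and lymphocyte marker sums, which are not drawn.

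The labelled cell type was clear in the markers. Myh11, the smooth muscle myosin, ranged from 5424 to 9453 CPM and Acta2, smooth muscle actin, from 9856 to 15763 CPM. Tagln, from 3669.5 to 4958 CPM, and Cnn1, from 1483 to 2320.3 CPM, both of the contractile apparatus, were also high. Myocd, a coactivator of smooth muscle genes, had a log2 fold change, knockout over WT, of 0.36 ± 0.15 (SE; edgeR adjusted p = 0.831). Endothelial markers summed to 101 to 117 CPM, nearly all of it from Pecam1 (52.9 to 63.6 CPM) and Erg (35.5 to 50.4 CPM), while Cdh5, Kdr and Cldn5 were under 1 CPM. Vwf had 1.99 to 5.33 CPM, Tie1 at most 2.32 CPM and Tek at most 1.26 CPM. Macrophage markers summed to 6.39 to 29.5 CPM, lymphocyte markers to 0.0245 to 1.24 CPM and nerve markers to 3.64 to 12.8 CPM. Adipocyte markers summed to 47.5 to 65.7 CPM, skeletal muscle markers to 9.01 to 14.6 CPM and cardiac markers to at most 46.2 CPM. These sums are partial, since only 4 of 9 listed adipocyte, 4 of 8 skeletal and 5 of 7 cardiac markers had an entry. In the adipocyte sum Fabp4 alone had 37.3 to 53.1 CPM, and Ucp1 had at most 0.0736 CPM. Among the cardiac markers, Tnni3 had a log2 fold change of 0.86 ± 0.35 (SE; edgeR adjusted p = 0.830). Library totals ran from 37787465 to 154384307 estimated counts, the highest 4.09 times the lowest.

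The comparison of knockout with WT asked whether loss of miR-21 in smooth muscle goes with a different Hox code. No Hox gene passed the test. Of the 32 genes, 26 had enough counts to be tested, and 6 (Hoxa13, Hoxc11, Hoxc13, Hoxd3, Hoxd4 and Hoxd10) did not. With edgeR's quasi-likelihood F test and Benjamini-Hochberg adjustment over 16654 genes, 0 of the 26 and 0% of all genes tested had an adjusted p under 0.05. The smallest adjusted p of a Hox gene was 0.793, and that of any gene was 0.217. DESeq2's Wald test called 0 Hox genes and 0.427% of the 17577 genes it adjusted.

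At an unadjusted edgeR p under 0.05, 0 Hox genes were higher in the knockout, against 3.95% of all genes tested, and 1 was lower, against 2.01%. The lowest knockout library was above the highest WT library for 0 tested Hox genes, against 6.53% of all genes, and the reverse held for 2, Hoxa10 and Hoxc10, against 5.59%. Of the 26 fold changes, 9 were above 0 and 17 below, with a median log2 fold change of -0.07. Over all genes tested 8221 were above 0 and 8433 below, with a median of -0.002. The median size of a Hox fold change was 0.15 on the log2 scale, under the median SE of 0.19. For the tested genes of numbers 9 to 13 the median size was 0.36, above their median SE of 0.24. The 95% interval reached a median of 0.44 to either side of the estimate.

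**Figure D4:**
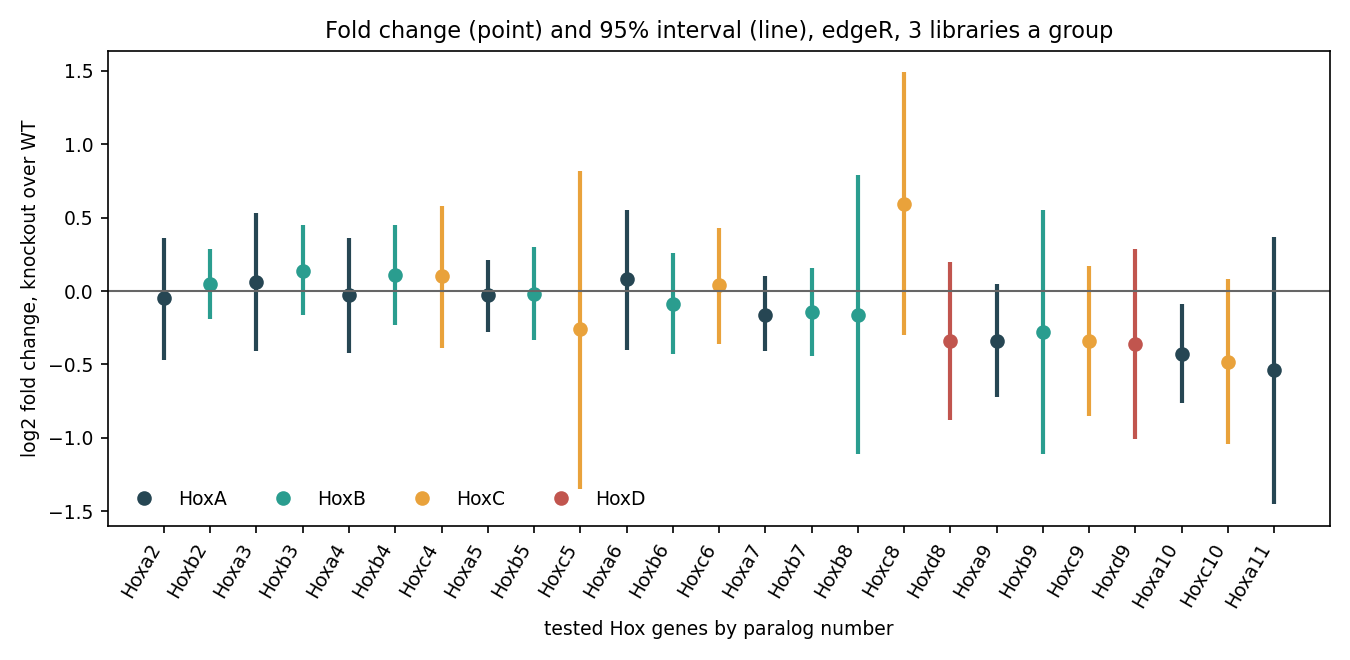
Log2 fold change, knockout over WT, of the tested Hox genes from number 2 on, in order of paralog number, with 95% intervals from edgeR (3 libraries a group) and colours for the clusters. The 7 genes of numbers 9 to 13, at the right, all lie below 0, and only the interval of Hoxa10 (-0.76 to -0.09) does not reach 0.

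Hoxa10 (chromosome 6, 52231197 to 52240854, minus strand), a posterior gene best known from the uterus and from blood cell development, had 18.0, 13.8 and 12.8 CPM in WT 1, 2 and 3 and 10.3, 11.1 and 11.6 CPM in knockout 1, 2 and 3. The lowest WT library lay above the highest knockout library, and WT 1 stood above the other 5. The log2 fold change was -0.43 ± 0.14 (SE), with an unadjusted edgeR p of 0.0199 and an adjusted p of 0.793. DESeq2 gave an adjusted p of 0.525, and over the alternatives without the replicate block the adjusted p ran from 0.440 to 1.00. The log2 fold change was -0.27 without WT 1 and also with limma-voom.

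Hoxc10 had 7.38, 4.73 and 5.11 CPM in WT and 4.58, 3.11 and 4.61 CPM in the knockout. Here WT 1 was the highest library, knockout 2 was the lowest, and WT 2 stood just above knockout 3. Its log2 fold change was -0.48 ± 0.24 (SE; edgeR adjusted p = 0.856), and it was -0.26 without WT 1 and -0.32 without knockout 2. The knockout mean was also below the WT mean for Hoxa9, which had 5.17, 6.89 and 5.51 CPM in WT and 5.25, 4.32 and 4.34 CPM in the knockout, a log2 fold change of -0.34 ± 0.16 (SE; edgeR adjusted p = 0.855). Knockout 1 overlapped the WT libraries in this gene, and without WT 2 its log2 fold change was -0.21.

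All 7 tested genes of numbers 9 to 13 had a log2 fold change below 0, with a median of -0.36, and 0 of them passed the test. The other 4 of these genes were Hoxa11 at -0.54 ± 0.38, Hoxd9 at -0.36 ± 0.27, Hoxc9 at -0.34 ± 0.22 and Hoxb9 at -0.28 ± 0.35 (log2 fold change ± SE). Several of these sizes depend on 1 library or on the tool. Hoxd9 was at -0.12 without WT 1 and -0.04 with limma-voom, Hoxa11 was at -0.28 without WT 1 and -0.26 without knockout 2, and Hoxb9 ran from -0.66 to -0.08 over the alternatives. These genes are not independent replicates, since the same 6 libraries gave all of them. In CPM per kb, genes of number 9 summed to 2.62 ± 0.222 for WT and 2.07 ± 0.222 for the knockout, and genes of number 10 to 7.58 ± 1.60 and 5.54 ± 0.496 (SD, n = 3 each), with no overlap between groups. Among single genes, 5.59% of all genes tested had every knockout library below every WT library. The number 10 sum repeats Hoxa10 and Hoxc10, and each number 9 gene overlapped by itself. As a percent of the Hox level number 9 overlapped too, with 3.9% in knockout 1 and 3.6% in WT 3. The sums in CPM per kb of every other number overlapped.

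The anterior and middle genes lay nearer to 0. Of the 8 tested genes of numbers 1 to 4, 6 were above 0 and 2 below, with a median log2 fold change of 0.08. Hoxb2 had a log2 fold change of 0.05 ± 0.10, Hoxa3 of 0.06 ± 0.20 and Hoxa4 of -0.03 ± 0.17 (SE). Of the 11 of numbers 5 to 8, 3 were above 0 and 8 below, with a median of -0.09. Hoxa5 had -0.03 ± 0.10, Hoxb6 -0.09 ± 0.15, Hoxb7 -0.14 ± 0.12, Hoxa7 -0.16 ± 0.11 and Hoxd8 -0.34 ± 0.23 (log2 fold change ± SE). The highest fold change of any Hox gene was that of Hoxc8, 0.59 ± 0.38 (SE; edgeR adjusted p = 0.864), which ranged from 0.662 to 1.24 CPM in WT and from 0.869 to 1.88 CPM in the knockout.

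Genes whose UTR holds a seed match of a microRNA from the clusters also stayed under the threshold. Hoxa3 and Hoxb3, with a miR-10 match, had log2 fold changes of 0.06 and 0.14. Of the 7 with a miR-196 match, 6 were below 0, from -0.34 for Hoxa9 to -0.03 for Hoxa4 and Hoxa5, and Hoxc8 was at 0.59. Their groups of libraries all overlapped. Hoxb8, with the longer pairing, had -0.16 ± 0.40 (SE).

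The partners of Hox proteins were detected in every library, and none passed the test. All 9 cofactors were tested, with 5 log2 fold changes above 0, 4 below and a median of 0.01. Meis1, which joins Hox and Pbx on DNA, had 54.1, 47.3 and 46.5 CPM in WT and 46.1, 47.4 and 51.2 CPM in the knockout. The groups overlapped, and the log2 fold change was -0.03 ± 0.08 (SE). For Meis2, Meis3, Pknox1, Pknox2 and Pbx2 it ran from -0.01 to 0.09. For Pbx3 the log2 fold change was -0.12 ± 0.13, and for Pbx4, at 0.366 to 0.974 CPM, it was -0.53 ± 0.38 (SE).

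Among the 22 Polycomb and Trithorax genes, which hold Hox clusters silent or active, 16 had a log2 fold change above 0 and 6 below, with a median of 0.08, and 0 passed the test. At an unadjusted p under 0.05, 4 of the 22 were higher, against 3.95% of all genes tested, and 0 were lower, against 2.01%. Kmt2a, the Trithorax methyltransferase that keeps Hox genes active, had 45.5 and 39.5 CPM in WT 1 and 3, a value between WT 1 and the lowest knockout library in WT 2, and 54.3, 52.3 and 49.8 CPM in the knockout, a log2 fold change of 0.25 ± 0.08 (SE; edgeR adjusted p = 0.793). Jarid2 and Phc1, of the Polycomb repressive complexes, both had 0.24 ± 0.08 (SE; edgeR adjusted p of 0.793 for Jarid2), and Suz12, a core Polycomb subunit, had 0.20 ± 0.07 (SE; edgeR adjusted p = 0.812). Of the 22, these same 4 genes had all knockout libraries above all WT libraries, against 6.53% of all genes. They were picked by their unadjusted p, which comes from the same values, so the separation adds no second support. In Bmi1 alone, a Polycomb subunit with 77.5 to 86.1 CPM in WT and 71.8 to 76.5 CPM in the knockout, they lay below, against 5.59%.

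Genes of signals that set the Hox code in the embryo were measured in part. Of the 17 genes of the retinoic acid and Cdx list, 13 had an entry, and no Cdx gene was among them. Of the 12 tested, 4 were above 0 and 8 below, with a median log2 fold change of -0.05. Rxra, a nuclear receptor that pairs with the retinoic acid receptors, had 94.5, 100.2 and 98.3 CPM in WT and 112, 109.8 and 112 CPM in the knockout (log2 fold change 0.19 ± 0.05, SE; edgeR adjusted p = 0.780). Gdf11, a secreted factor that promotes posterior Hox expression in the embryo, had 3.19, 1.84 and 2.61 CPM in WT and 1.74, 1.14 and 1.83 CPM in the knockout (log2 fold change -0.69 ± 0.28, SE; edgeR adjusted p = 0.830). In Gdf11 all knockout libraries lay below all WT libraries, as in 5.59% of all genes, but WT 2 and knockout 3 were nearly equal. WT 1 was the highest library and knockout 2 the lowest, the same extremes as in Hoxc10. Gdf11 was named for its unadjusted edgeR p under 0.05 among the 12 tested, and a link to Hoxc10 was not tested.

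Neither other positional genes nor the neighbours of the clusters passed the test. Of 20 tested transcription factors of other positional families, 9 were above 0 and 11 below, with a median log2 fold change of -0.02. Of 12 tested genes that flank the clusters, 6 were above 0 and 6 below, with a median of -0.01.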

How the data were processed

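RNA of 6 aortic samples (3 WT, 3 miR-21 knockout) was measured. The values are estimated counts by gene, deposited as a single table that is not normalized. The submitters' processing notes name mm10 as the build and list STAR 2.6 and DESeq2 without their roles. Which tool and annotation made the counts is not given in the sources used here. From 43.7% to 54.8% of the values of a library are whole numbers (within 1e-09), so reads were split among overlapping or similar genes. Columns were matched to samples by the code in the sample description.

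Counts were rounded, filtered with filterByExpr, scaled by TMM (factors 0.987 to 1.02) and tested with edgeR 4.0.16 (robust quasi-likelihood F test, two-sided, adjusted p threshold 0.05, R 4.3.3). CPM used the unrounded counts. Exon bases came from GENCODE M21, whose start and end matched the table for all 32 Hox genes once the end was lowered by 1. UTRs were those of the longest coding transcript, of at least 8 bases. Seed matches were counted without regard to overlap with other motifs. Library totals of 37787465 to 154384307 estimated counts put the limit of 3 counts at 0.0195 to 0.0804 CPM, which covers counting error only.

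The Hox members, the 14 gene lists and the rules were chosen with earlier results of these data known. Values of all 6 libraries are printed for the leading Hox gene of each cluster and paralog number, for the highest number with a mean of at least 1 CPM in each cluster, and for genes with an unadjusted p under 0.05. Cofactors are named, and from other lists up to 3 genes with an unadjusted p under 0.05. Values of some genes that fall under these rules are not reported here. Other Hox genes, Suz12, Bmi1, Lum, Dcn, Pecam1, Erg, Cdh5, Kdr, Cldn5, Vwf, Tie1, Tek, Fabp4 and Ucp1 were named after their values were seen.

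As alternatives, TMM was replaced by upper-quartile factors or DESeq2 size factors, and the filter by none or by a minimum of 1 CPM in 3 samples. The replicate number as a block, thinned counts, the omission of each library, limma-voom with sample weights (limma 3.58.1) and DESeq2 1.42.0 were also tried. The length of the longest coding transcript and the count and share of Hox9 to Hox13 were added after seeing the data. Tested on simulated data of 16654 genes for knockout against WT, the edgeR fit found 20.0% of the 65 genes given a 1.5-fold change. For a 2-fold change it found 74.2% of 66, and for a 4-fold change 87.1% of 62, and it made 10 false calls.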

Additional observations from a re-analysis of the deposited data

How the results depend on the processing

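Under edgeR 0 genes passed the threshold with DESeq2 size factors, upper-quartile factors, either filter and thinned counts, and 0 with limma-voom. DESeq2's Wald test called 75, the replicate block called 1, and leaving out a library gave 0 to 1, the 1 without knockout 1. The cause was not tested. In each of these alternatives 0 Hox genes and 0 cofactor, regulator or flanking genes passed. Replicate numbers paired the samples only in part: the correlations of same-numbered samples were 0.38, 0.45 and -0.02. WT 1 and WT 2 correlated best with the knockout sample of their own number, but WT 3 correlated best with knockout 1. The block is therefore shown only here (Hoxa10 had an adjusted p of 0.326 in that edgeR fit).

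Of 473 alternatives over 34 named genes, 20, in 12 genes, reversed. The other 453 kept their direction or, as Meis2 did without knockout 2, came to -0.00. When single libraries were left out, the log2 fold change ran from -0.10 to 0.26 for Hoxa3, from -0.17 to 0.07 for Hoxa4, from -0.10 to 0.03 for Hoxa5, from -0.02 to 0.13 for Hoxb2 and from -0.23 to 0.02 for Hoxb6. It ran from -0.02 to 0.12 for Pbx2, from -0.08 to 0.04 for Meis1, from -0.06 to 0.08 for Meis3, from -0.01 to 0.14 for Pknox1, from -0.06 to 0.01 for Pknox2, from -0.06 to 0.15 for Tagln and from -0.07 to 0.24 for Cnn1. With limma-voom, Meis1 had 0.02 and Meis3 -0.01.

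The difference in weighted paralog number ran from -0.35 to -0.13 over libraries left out, and that in the share of Hox9 to Hox13 from -4.09 to -1.65 percentage points. The tested Hox9 to Hox13 genes were below 0 in every alternative, 7 of 7, or 5 of 5 with at least 1 CPM in 3 samples, but their sizes moved: Hoxd9 came to -0.04 with limma-voom, Hoxb9 to -0.08 at its smallest and Hoxa9 to -0.21 without WT 2. The difference in summed Hox level ran from -14.5 to -4.23 CPM over libraries left out. Depth limits the 6 untested Hox genes, whose levels rest on few counts.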

Other observations

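The Hox clusters also gave counts for noncoding RNAs, which no comparison above uses. Because the kit does not mark strand, their reads cannot be told apart from those of Hox genes they overlap. Hotairm1, an antisense RNA of HoxA, had 4.03, 4.44 and 3.58 CPM in WT 1, 2 and 3 and 3.56, 5.47 and 4.09 CPM in knockout 1, 2 and 3, with overlapping groups. Hoxaas2, which shares exon bases with Hoxa3 on the opposite strand, had 6.49, 7.00 and 6.13 CPM in WT and 6.57, 8.07 and 6.83 CPM in the knockout. Knockout 2 was the highest library in both, as it was for 5 of the 8 genes of paralog numbers 1 to 4. Hoxb3os ranged from 2.93 to 4.35 CPM. At the posterior end, Hoxa11os ranged from 0.0915 to 0.332 CPM, with WT 1 highest, as for Hoxa11. Knockout 2 at 0.0915, knockout 3 at 0.0973 and WT 2 at 0.0981 CPM lay near the limit of detection, so its lowest library is not resolved. Hotair, in HoxC, was at 0 in 3 libraries and reached 0.0981 CPM at most. None of those tested passed the edgeR test.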
